A study of Mus musculus with 16 samples.

Results

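Pyruvate dehydrogenase (PDH) and the citric acid cycle were followed in mouse atria after myocardial infarction (MI) through 9 genes, Pdha1, Pdhb, Cs, Idh3a, Idh2, Ogdh, Sucla2, Fh1 and Mdh2. They were named for the enzyme step that each encodes, with earlier results of these data known, and a gene was taken from the rows of the value table annotated with that symbol alone, which gave 1 row for each of the 9. All 9 were among the 18419 genes tested, of 30141 genes with such a row. The atrial tissue came from male C57BL/6 mice, operated on at 10 weeks of age, and was put on 16 single-colour arrays, 4 each from mice 1, 3 and 7 days after surgical ligation of the heart's left anterior descending artery and 4 from sham-operated mice. This ligation injures the left ventricle, so the atria are tissue away from the tied artery, and the labels do not say which atrium was taken or at what interval from surgery the sham mice were killed. The labels do not say whether each array stands for a separate mouse, so p-values measure the spread between these arrays.

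The PDH complex turns pyruvate into acetyl-CoA inside mitochondria and is switched off by its kinases (Pdk1 to Pdk4) and on by its phosphatases (Pdp1 and Pdp2). Citrate synthase then joins acetyl-CoA to oxaloacetate, and the cycle's dehydrogenases pass electrons to NADH and FADH2, which feed the respiratory chain. Heart muscle cells are dense in mitochondria and cover most of their energy need through this route, with fatty acids as the main fuel.

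All 9 genes were lower in MI atria than in sham atria on each of the 3 days, with every MI value below every sham value. The same held for 24.2%, 20.5% and 18.4% of all tested genes on days 1, 3 and 7. The median log2 difference from sham over the 9 was −1.21 on day 1, −1.63 on day 3 and −0.77 on day 7, where the median over all tested genes was 0.064, 0.082 and −0.006. Values are log2 signals as deposited. A gene was called at a Benjamini-Hochberg adjusted p under 0.05 in limma's moderated test, fitted over all 16 arrays. In bulk tissue, fewer cells of a type and less RNA per cell cannot be told apart.

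Array 13 of day 1 and array 31 of day 3 stood apart from the rest. Control separation, the area under the receiver operating curve between positive and negative control rows, was 0.755 in array 13 and 0.743 in array 31, where the other 14 arrays had 0.793 to 0.825. Day 1 arrays 11, 12 and 14, at 0.793 to 0.804, also lay below every sham array, at 0.812 to 0.821. Array 31 had the lowest value of all 16 arrays for each of the 9 genes, and array 13 the lowest of its group for each of the 9. The 2 arrays widen the spread that the fit pools over all groups, and the counts of called genes against sham, for the 9 genes, the pathway lists and the marker lists, are therefore given with and without them. The F test was run on all arrays alone. Whether RNA quality had a part in these values was not tested.

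The E1 enzyme of the PDH complex, which removes carbon dioxide from pyruvate, is built from the products of Pdha1 and Pdhb. Pdha1, the alpha subunit that carries the sites phosphorylated by the kinases, measured 17.10, 17.30, 16.19 and 16.99 on day 1, 14.78, 16.88, 16.74 and 16.84 on day 3 and 17.10, 17.09, 17.19 and 17.09 on day 7, against 17.51, 17.64, 17.68 and 17.68 in sham. Arrays 13 and 31 were the low values of their days, and the 4 day 7 arrays lay within a narrow band below sham. The log2 difference from sham was −0.73 on day 1, −1.31 on day 3 and −0.51 on day 7 (SE 0.37 each, n = 4 per group), with limma adjusted p-values of 0.118, 0.0109 and 0.378, so that only the day 3 fall was called. That call ended when the fit held the day 3 and sham arrays alone (adjusted p 0.0561). Pdhb, the beta subunit, measured 17.93, 18.13, 16.54 and 17.45 on day 1, 15.53, 17.64, 17.44 and 17.56 on day 3 and 17.96, 17.96, 18.22 and 17.96 on day 7, against 18.60, 18.66, 18.85 and 18.81 in sham. No MI array reached the lowest sham array. Pdhb fell by 1.22 on day 1 and fell by 1.69 on day 3 on the log2 scale (SE 0.41, adjusted p 0.0267 and 0.00414), and its day 7 difference was −0.71 (adjusted p 0.244).

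Cs encodes citrate synthase, the enzyme of the entry step, whose activity is widely used as a measure of mitochondrial content. It measured 17.06, 17.46, 15.66 and 16.63 on day 1, 14.63, 16.87, 16.83 and 16.83 on day 3 and 17.34, 17.38, 17.19 and 17.19 on day 7, against 18.04, 18.06, 18.29 and 18.02 in sham. The gap to sham was wide on each day relative to the spread of the sham arrays. Cs fell by 1.40 on day 1 and fell by 1.81 on day 3 (SE 0.45, adjusted p 0.0211 and 0.00455), and differed by −0.83 on day 7 (adjusted p 0.208).

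The isocitrate step has an NAD-dependent enzyme, whose catalytic alpha subunit is encoded by Idh3a, and a mitochondrial NADP-dependent enzyme, Idh2, which makes NADPH used against peroxides. Idh2 measured 13.92, 14.27, 12.51 and 13.41 on day 1, 11.25, 13.61, 13.37 and 13.49 on day 3 and 13.58, 13.80, 13.52 and 13.63 on day 7, against 14.74, 14.93, 15.01 and 14.96 in sham. Its day 7 arrays stayed close to the 3 higher day 3 arrays. The Idh2 difference was −1.38 on day 1, −1.98 on day 3 and −1.27 on day 7 (SE 0.45, adjusted p 0.0236, 0.00279 and 0.0541), and it was the largest of the 9 on days 3 and 7. Idh3a averaged 15.28 ± 0.65, 14.85 ± 1.07 and 15.68 ± 0.13 on days 1, 3 and 7, against 16.44 ± 0.09 in sham (SD, n = 4). Idh3a fell by 1.16 on day 1 and fell by 1.60 on day 3 (SE 0.42, adjusted p 0.0343 and 0.00635), with a difference of −0.77 on day 7 (adjusted p 0.209).

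Ogdh encodes the E1 component of the 2-oxoglutarate dehydrogenase complex, the next oxidative step. It averaged 14.65 ± 0.64, 14.31 ± 1.09 and 15.19 ± 0.15 on days 1, 3 and 7, against 15.86 ± 0.10 in sham (SD, n = 4). Ogdh fell by 1.21 on day 1 and fell by 1.56 on day 3 (SE 0.42, adjusted p 0.0304 and 0.00816) and differed by −0.67 on day 7 (adjusted p 0.287). Sucla2 encodes the ADP-forming beta subunit of succinyl-CoA ligase, which makes ATP at substrate level. It measured 14.35, 14.58, 13.40 and 13.98 on day 1, 12.33, 13.99, 13.74 and 13.75 on day 3 and 14.21, 14.08, 14.56 and 14.21 on day 7, against 15.04, 15.26, 15.19 and 15.17 in sham. The 4 day 3 arrays lay below all 4 day 7 arrays, and array 31 was the lowest. Sucla2 had the lowest adjusted p-values of the 9, with called differences of −1.09 on day 1 and −1.71 on day 3 (SE 0.32, adjusted p 0.0129 and 0.000606), and a day 7 difference of −0.90 (adjusted p 0.051).

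Fh1 encodes fumarase and Mdh2 the mitochondrial malate dehydrogenase, which closes the cycle and takes part in the malate-aspartate shuttle. Fh1 averaged 13.14 ± 0.72, 12.79 ± 1.05 and 13.56 ± 0.18 on days 1, 3 and 7, against 14.42 ± 0.15 in sham (SD, n = 4), and fell by 1.28 on day 1 and fell by 1.63 on day 3 (SE 0.43, adjusted p 0.0259 and 0.00662). Mdh2 averaged 14.75 ± 0.55, 14.42 ± 0.78 and 15.10 ± 0.17 on the same days, against 15.76 ± 0.12 in sham, and fell by 1.01 on day 1 and fell by 1.34 on day 3 (SE 0.33, adjusted p 0.022 and 0.00418). Neither was called on day 7, where the differences were −0.85 for Fh1 and −0.66 for Mdh2 (adjusted p 0.171 and 0.165).

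**Figure D1:**
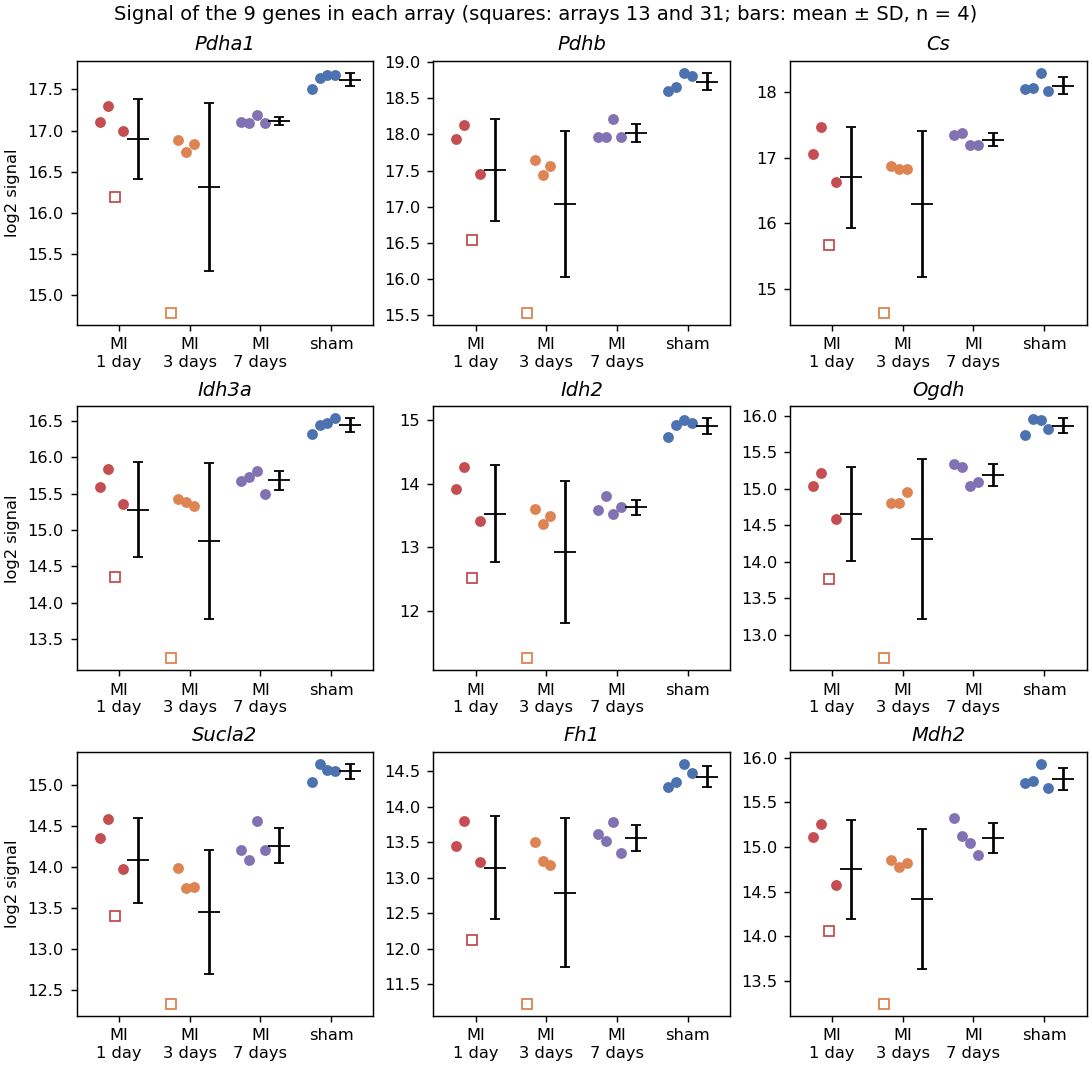
Deposited log2 signal of each of the 9 genes on every array, by group, with squares for arrays 13 and 31 and bars for the mean ± SD of all 4 arrays. Each gene has its sham arrays above all arrays of the 3 MI days, and array 31 is the lowest point in every panel.

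By count, 8 of the 9 genes were called lower on day 1, Pdha1 being the exception, and 9 of 9 on day 3. Among all tested genes 22.2% were called lower and 24.9% higher on day 1, and 20.2% lower and 23.5% higher on day 3. On day 7, limma called none of the 9 at the adjusted threshold while Idh2 and Sucla2 had unadjusted p-values under 0.05, and 9.92% of all genes were called lower and 14.9% higher. Every MI value lay below every sham value in 9 of 9 genes on each day, which held for 24.2%, 20.5% and 18.4% of all tested genes on days 1, 3 and 7. A moderated F test over the 3 days called 9 of 9, with adjusted p-values of 0.00322 for Sucla2 to 0.0483 for Pdha1, where it called 52.3% of all genes. The day 1 count rested on single arrays, since it was 1 without array 13, 1 without sham array 3, 4 without sham array 4 and 3 without day 1 array 14. The gene that stayed called in each of these fits was Sucla2, and the adjusted p-values of the lost calls lay between 0.0509 and 0.117. All tested genes called on day 1 in either direction numbered 8678 on all arrays. They numbered 6447 without array 13, 6918 without sham array 3, 7124 without sham array 4 and 7025 without array 14.

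Without arrays 13 and 31, all 9 genes were called lower on each of the 3 days, where 24.7%, 20.9% and 19.3% of all tested genes were called lower and 33.0%, 28.2% and 21.3% higher on days 1, 3 and 7. The differences were then smaller on days 1 and 3 and their SEs lay between 0.07 and 0.16. They spanned −1.05 to −0.50 on day 1, −1.42 to −0.80 on day 3 and −1.27 to −0.51 on day 7, with highest adjusted p-values of 0.000447, 9e-05 and 0.00124. Leaving out array 31 alone also brought the day 7 count to 9, and leaving out array 12, 13 or 32 alone to 2, 2 and 1. All tested genes called on day 7 in either direction also moved, from 3320 to 6531 over the fits that left out 1 array. With control separation as a covariate, a fit that keeps all arrays, the day 1 differences shrank to between −0.49 and 0.03 with 8 of 9 called lower. Pdha1 stood at 0.03 ± 0.09 (SE, adjusted p 0.785). Control separation was 0.755 to 0.804 on day 1 and 0.812 to 0.821 in sham, without overlap. The covariate thus follows the group, and this fit cannot part it from day 1. In the same fit 9 of 9 were called lower on day 3, at −1.50 to −0.92, and on day 7, at −1.24 to −0.48. Of all 18419 tested genes, this fit called 7821, 9415 and 7558 in either direction on days 1, 3 and 7.

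**Figure D2:**
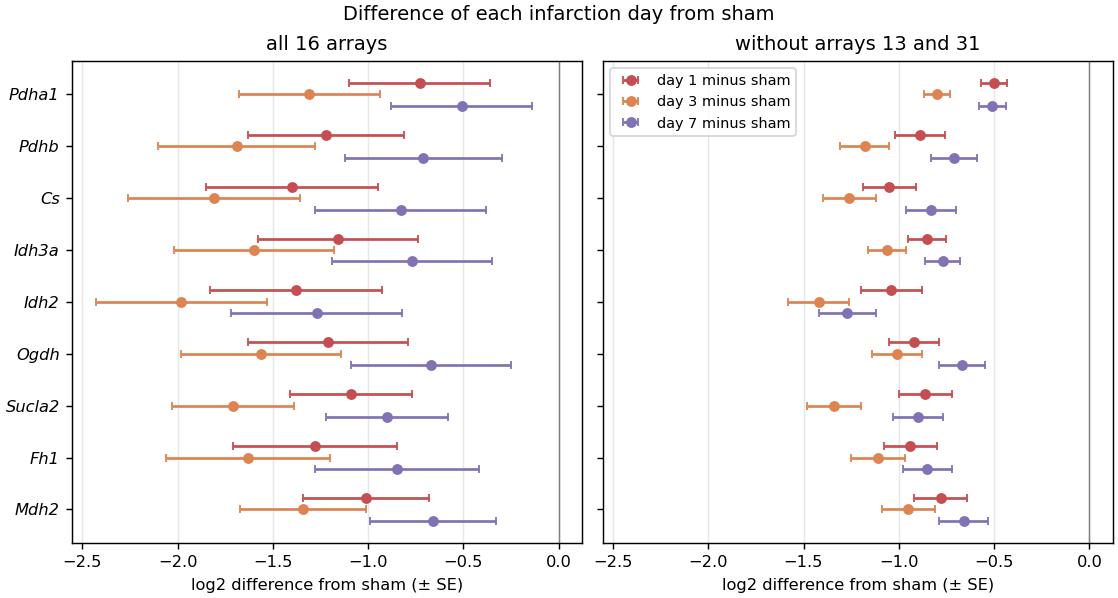
Log2 difference from sham of each gene on each MI day, as points with the SE of the fit, for all 16 arrays on the left and without arrays 13 and 31 on the right. The day 7 points are the same in both panels, −1.27 to −0.51, and have shorter error bars on the right.

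The group means of all 9 genes stood in 1 order, with sham highest, then day 7, day 1 and day 3, but neighbours in that order were not separated by the tests on all arrays. No member was called between any pair of days. Day 7 minus day 3 gave differences of 0.68 for Mdh2 to 0.98 for Cs, where 4 of 9 had an unadjusted p under 0.05, the lowest adjusted p was 0.108 and 4.06% of all genes were called higher. Day 7 minus day 1 gave 0.11 for Idh2 to 0.57 for Cs, where 13.7% of all genes were called higher. Day 3 minus day 1 gave −0.63 for Sucla2 to −0.33 for Mdh2, where 2.16% of all genes were called lower and 5.95% higher. No member had an unadjusted p under 0.05 in either comparison. The 95% intervals of these differences were wide, as for Idh2 between days 7 and 3, at −0.27 to 1.68.

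Without arrays 13 and 31, Pdha1, Pdhb, Cs and Sucla2 were called higher on day 7 than on day 3, by 0.30, 0.48, 0.43 and 0.44, where 5.43% of all tested genes were called higher. For Idh2 the same difference was 0.14 (95% interval −0.20 to 0.49, adjusted p 0.604). Pdha1 and Sucla2 were called lower on day 3 than on day 1, with differences of −0.31 and −0.48, where 15.0% of all genes were called lower. None was called between days 7 and 1, with differences of −0.23 to 0.25 and a lowest adjusted p of 0.133, and sham, day 7, day 1 and day 3 kept their order in 6 of 9 genes. With control separation as a covariate, day 7 minus day 3 was 0.26 to 0.58, with 8 of 9 called higher. Day 3 minus day 1 was −1.04 to −0.64 in that fit, with 9 of 9 called lower. The day 7 minus day 1 differences turned negative in all 9, at −0.78 to −0.26, with 4 called lower. The shares of all tested genes called between days in that fit are not given here. Control separation was 0.755 to 0.804 on day 1 and 0.813 to 0.823 on day 7, without overlap, so this fit cannot part the covariate from the day.

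The difference between enzymes that share a step, taken within each array, was not the same in every group. These pairs were chosen after their values were seen and carry no test, and a change of the within-array difference says nothing of either gene's amount. Pdhb minus Pdha1 was 0.62 ± 0.25, 0.73 ± 0.03 and 0.91 ± 0.09 on days 1, 3 and 7, against 1.11 ± 0.07 in sham (SD, n = 4), so that the beta subunit lay further below its sham mean than the alpha subunit, and on days 1 and 3 no array overlapped sham. Idh2 minus Idh3a was −1.75 ± 0.18, −1.92 ± 0.10 and −2.04 ± 0.19, against −1.53 ± 0.06 in sham. This difference was widest on day 7, when Idh3a lay nearest to its sham level. Mdh2 minus its cytosolic counterpart Mdh1 was −2.59 ± 0.40, −2.78 ± 0.35 and −2.39 ± 0.19, against −1.96 ± 0.23 in sham. Sucla2 minus Suclg2, the GDP-forming beta subunit, was 3.27 ± 0.03, 3.43 ± 0.09 and 3.75 ± 0.16, against 3.45 ± 0.07 in sham, below sham on day 1 and above it on day 7.

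Across arrays the 9 genes went together. Their mean log2 difference from sham was −0.83, −0.58, −2.05 and −1.20 in day 1 arrays 11 to 14, −3.12, −1.05, −1.19 and −1.14 in day 3 arrays 31 to 34 and −0.76, −0.78, −0.74 and −0.90 in day 7 arrays 71 to 74, with sham arrays within −0.11 to 0.10 of their own mean. Day 1 had the widest spread among its other 3 arrays, and array 12 was the highest of day 1 for all 9 genes.

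Several marker lists of cell types also differed between MI and sham atria. Of 10 cardiomyocyte markers 9 had a row, and 4, 5 and 0 of these were called lower on days 1, 3 and 7, where 22.2%, 20.2% and 9.92% of all tested genes were. Without arrays 13 and 31 the counts were 5, 6 and 4, where 24.7%, 20.9% and 19.3% of all genes were called lower. None of the 9 markers was called higher in either fit, while Nppa and Tnnt2 lay at the ceiling of the scale and could show no change. The mean of the cardiomyocyte list against sham ranged from −2.11 to −1.02 on day 1, from −3.23 to −0.73 on day 3 and from −1.01 to −0.38 on day 7, against −0.08 to 0.10 in sham. Tnni3, the cardiac inhibitory troponin, differed by −0.93, −1.15 and −0.67 on days 1, 3 and 7, called on the first 2 of them. The atrial genes Myl7, a myosin light chain, and Sln, the calcium pump regulator sarcolipin, were at 17.62 to 18.29 and 17.72 to 18.16 in sham, so markers of the labelled tissue were present, and at 10.23 and 9.54 in array 31. The ventricular marker Myl3 was also present in sham, at 16.01 to 16.29. Array 12 had the lowest Myl7 and Sln of day 1, 11.90 and 10.01, together with the highest values of the 9 genes on that day. Other muscle markers went the other way in array 12. Tnni3 at 12.61 and the ventricular marker Myl3 at 16.15 were the highest of day 1, and Ryr2 was 16.25, beside 16.27 in array 11. Of 4 ventricular markers, 3, 3 and 2 were called lower, and 4, 3 and 3 without arrays 13 and 31.

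Leukocyte markers went the other way, with 9, 10 and 8 of 10 called higher on days 1, 3 and 7 and 10, 10 and 9 without arrays 13 and 31. Among all tested genes 24.9%, 23.5% and 14.9% were called higher on all arrays and 33.0%, 28.2% and 21.3% without these 2. Called lower were 22.2%, 20.2% and 9.92% of all tested genes on all arrays and 24.7%, 20.9% and 19.3% without these 2. The leukocyte list means were of 3.45 to 4.27, 3.44 to 4.02 and 1.87 to 2.94 above the sham mean, against −0.14 to 0.07 in sham. S100a8, a neutrophil gene, reached 13.64 in array 31, where arrays 32 to 34 had 7.67 to 7.96. Itgam was also raised in array 31, at 12.70 against 10.57 to 10.79 in arrays 32 to 34. Not every marker of the list was raised there. Adgre1 was 8.55 there against 10.44 to 11.08 in arrays 32 to 34, and Ptprc was 9.73 against 9.33 to 9.88. Fibroblast markers, 5 with a row, had 0, 3 and 4 called higher, 2 called lower on day 1, and list means of −0.41 to 0.57, 0.91 to 3.23 and 4.33 to 5.05, against −0.21 to 0.24 in sham. Without arrays 13 and 31, 2, 4 and 5 of them were called higher and 2 lower on day 1. Of 5 endothelial markers, 3 were called lower on day 1, and 1 was called higher on each later day, with the same counts without arrays 13 and 31 except that 1 was also called lower on day 3. Of 3 cell division markers with a row, 0, 3 and 3 were called higher, and 1, 3 and 3 without these 2 arrays. Among 5 skeletal muscle markers, 2, 4 and 0 were called lower, and 2, 4 and 1 without them. Of 4 brown adipocyte markers 2 were tested, of which 2, 2 and 1 were called lower on all arrays and 2, 2 and 2 without arrays 13 and 31. Ucp1, the defining one, was not among the 2 tested, so these calls do not rest on it. Ucp1 stayed below the median negative control except in array 73, at 6.26, where the 3 remaining day 7 arrays had 3.08 to 3.34. With array 73 left out beside arrays 13 and 31, an alternative added after seeing the data, 9 of 9 genes were called lower on day 7 and 1 of 9 higher on day 7 than on day 3. The shares of all tested genes called lower or higher in that fit are not given here. Of 4 adipocyte markers only Adipoq was tested and it was not called in either fit, and Plin1 and Lep were above the median negative control on no array. What part the cell makeup had in the 9 genes was not tested.

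**Figure D3:**
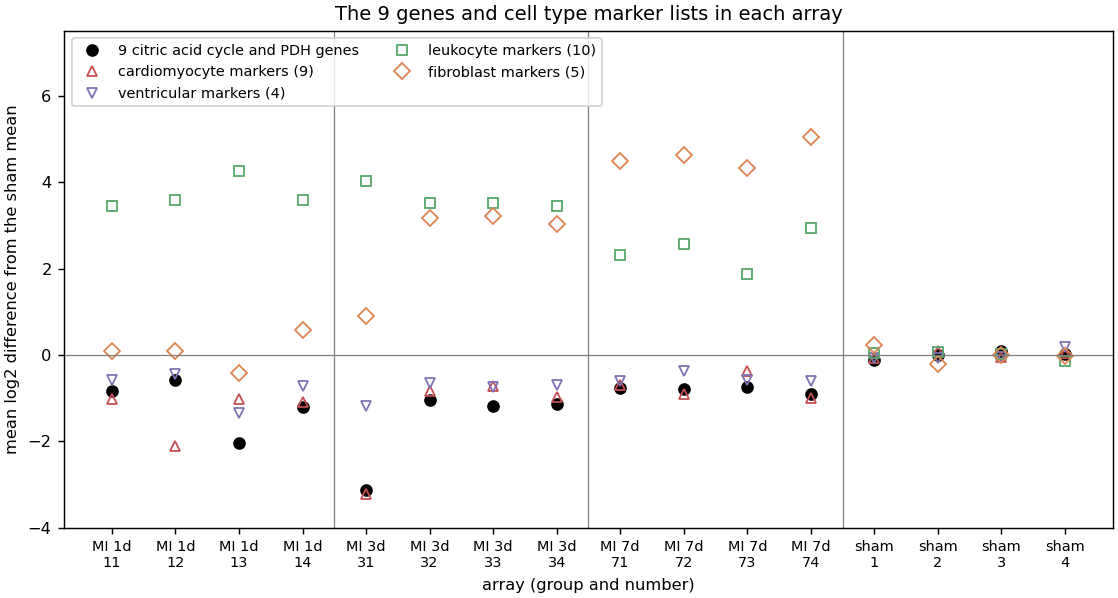
Mean log2 difference from the sham mean in each array for the 9 genes (filled circles) and for marker lists of cardiomyocytes, ventricular cardiomyocytes, leukocytes and fibroblasts. The 9 genes and the cardiomyocyte list are both lowest in array 31, at −3.12 and −3.23, but array 12 is low for the cardiomyocyte list and the highest of day 1 for the 9 genes. In array 12, Myl7 and Sln were the lowest of day 1, while Tnni3 and the ventricular marker Myl3 were the highest.

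Of 47 further genes of the pathway, 44 had a row of their own and 43 were tested. On days 1, 3 and 7, 27, 35 and 12 of the 43 were called lower and 2, 4 and 3 higher, with medians of −0.77, −0.97 and −0.52. Over all tested genes 22.2%, 20.2% and 9.92% were called lower and 24.9%, 23.5% and 14.9% higher, with medians of 0.064, 0.082 and −0.006. Without arrays 13 and 31, 32, 33 and 34 of the 43 were called lower and 3, 5 and 4 higher, where 24.7%, 20.9% and 19.3% of all genes were called lower and 33.0%, 28.2% and 21.3% higher. The genes called higher on all arrays were Me2, a mitochondrial malic enzyme, and Acly, the cytosolic ATP citrate lyase, on each day, Pdk3 on days 3 and 7 and Slc25a1, the mitochondrial citrate carrier, on day 3. Slc25a1 measured 4.96 to 5.24, close to the median negative control of the arrays at 4.44 to 4.93. Me2 differed by 0.61, 0.92 and 0.57 and Acly by 0.51, 0.68 and 0.41, and both were singled out after their values were seen.

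Among 11 tested genes of the PDH complex and its control, 7, 9 and 2 were called lower and 0, 1 and 1 higher on days 1, 3 and 7, and 7, 8 and 8 lower and 1, 2 and 1 higher without arrays 13 and 31. Over all tested genes 22.2%, 20.2% and 9.92% were called lower and 24.9%, 23.5% and 14.9% higher on all arrays. Without arrays 13 and 31 these shares were 24.7%, 20.9% and 19.3% lower and 33.0%, 28.2% and 21.3% higher. Dlat, the E2 core, differed by −1.44, −1.81 and −0.88, Pdhx, the E3-binding protein, by −1.39, −1.65 and −0.91, and Dld, the E3 enzyme, by −1.12, −1.60 and −0.72, each called on days 1 and 3. The day 1 calls of Dld and Pdhx ended when array 13 was left out alone (adjusted p 0.105 and 0.0645), and that of Dld also without sham array 2, 3 or 4 or day 1 array 14. Pdk2 had the largest difference of the 43 on days 1 and 3. It measured 9.71, 10.17, 7.69 and 8.78 on day 1, 6.91, 9.62, 9.41 and 9.36 on day 3 and 10.32, 10.08, 10.01 and 10.04 on day 7, against 11.38, 11.53, 11.73 and 11.46 in sham. All 12 MI values lay below sham, and Pdk2 fell by 2.44 on day 1 and fell by 2.70 on day 3 (SE 0.56, adjusted p 0.00316 and 0.00139), with a difference of −1.41 on day 7 (adjusted p 0.0837).

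The other kinases had smaller or opposite differences. Pdk1 differed by −0.30, −0.57 and −0.52 (SE 0.11), called on all 3 days, but the day 1 call ended without arrays 13 and 31 (adjusted p 0.069) and in 9 of 16 fits that left out 1 array (adjusted p 0.0503 to 0.124). Pdk3 measured 5.56, 5.37, 5.40 and 5.65 on day 1, 5.27, 6.07, 6.21 and 5.98 on day 3 and 5.99, 5.86, 5.73 and 6.03 on day 7, against 5.24, 5.20, 5.18 and 5.20 in sham. Every MI array was above sham, and Pdk3 rose by 0.68 on day 3 and by 0.70 on day 7 (SE 0.16, adjusted p 0.00283 and 0.00469), the first of which ended after quantile normalisation (0.51, adjusted p 0.0659). Pdk3 signal was low, where the median negative control of the arrays was 4.44 to 4.93. Pdk4, a kinase induced by fasting and fatty acids, measured 18.51, 18.92, 18.43 and 17.89 on day 1, 15.61, 18.68, 19.32 and 18.45 on day 3 and 18.47, 18.63, 18.83 and 18.30 on day 7, against 18.35, 18.47, 16.19 and 16.81 in sham. The sham arrays themselves were split, and the MI arrays overlapped them on each day. The Pdk4 differences of 0.98, 0.56 and 1.11 (SE 0.67) were not called (adjusted p 0.233, 0.516 and 0.269), with 95% intervals of −0.46 to 2.43, −0.88 to 2.01 and −0.34 to 2.55, and without arrays 13 and 31 the day 3 difference was 1.37 and was called (adjusted p 0.0301), while after quantile normalisation of all arrays it was −0.02. Of the phosphatases, Pdp2 differed by −1.01, −1.15 and −0.78 (SE 0.14), called on all 3 days. Pdp2 was also low in signal, at 5.07 to 5.70 on the MI days. Pdp1 differed by −0.13, −0.31 and −0.17 (SE 0.10), called on day 3 alone and not called there without arrays 13 and 31 (adjusted p 0.0542) or without array 31, sham array 3 or sham array 4 alone (0.0568 to 0.0906).

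Of 9 other cycle enzymes, 6, 9 and 1 were called lower on days 1, 3 and 7, and 9, 9 and 9 without arrays 13 and 31, with none higher in either fit. Over all tested genes 22.2%, 20.2% and 9.92% were called lower and 24.9%, 23.5% and 14.9% higher on all arrays. Without arrays 13 and 31 these shares were 24.7%, 20.9% and 19.3% lower and 33.0%, 28.2% and 21.3% higher. Sdhc and Sdhd, the membrane anchors of succinate dehydrogenase, differed by −1.59, −2.01 and −0.83 and by −1.84, −1.78 and −0.77, called on days 1 and 3. The Sdhd calls ended on day 1 without sham array 4 or array 13 and on day 3 without sham array 1, 3 or 4 (adjusted p 0.0509 to 0.0857), and on day 3 also with the day 3 and sham arrays alone (adjusted p 0.0771). Suclg2 differed by −0.91, −1.70 and −1.20 and was the 1 gene of these called on day 7 on all arrays (adjusted p 0.00838), while its day 1 call ended without sham array 4, array 13 or array 14 (adjusted p 0.0516 to 0.0793). Dlst, the E2 core of the 2-oxoglutarate dehydrogenase complex, differed by −1.30, −1.38 and −0.80, called on days 1 and 3. Of 23 tested accessory, cytosolic and anaplerotic genes, 14, 17 and 9 were called lower and 2, 3 and 2 higher, and 16, 16 and 17 lower and 2, 3 and 3 higher without arrays 13 and 31. Nnt, the transhydrogenase that makes mitochondrial NADPH, differed by −1.65, −2.48 and −1.54, and Ogdhl, a relative of Ogdh, by −1.59, −2.18 and −1.46. Got1, the cytosolic aspartate aminotransferase, differed by −1.25, −1.82 and −1.21. These 3 genes were called on all 3 days, Slc25a11, the oxoglutarate carrier, at −1.47, −1.79 and −0.84, on days 1 and 3. The day 1 call of Slc25a11 ended without array 13 (adjusted p 0.0691) and the day 7 call of Ogdhl without sham array 3 (adjusted p 0.0532).

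**Figure D4:**
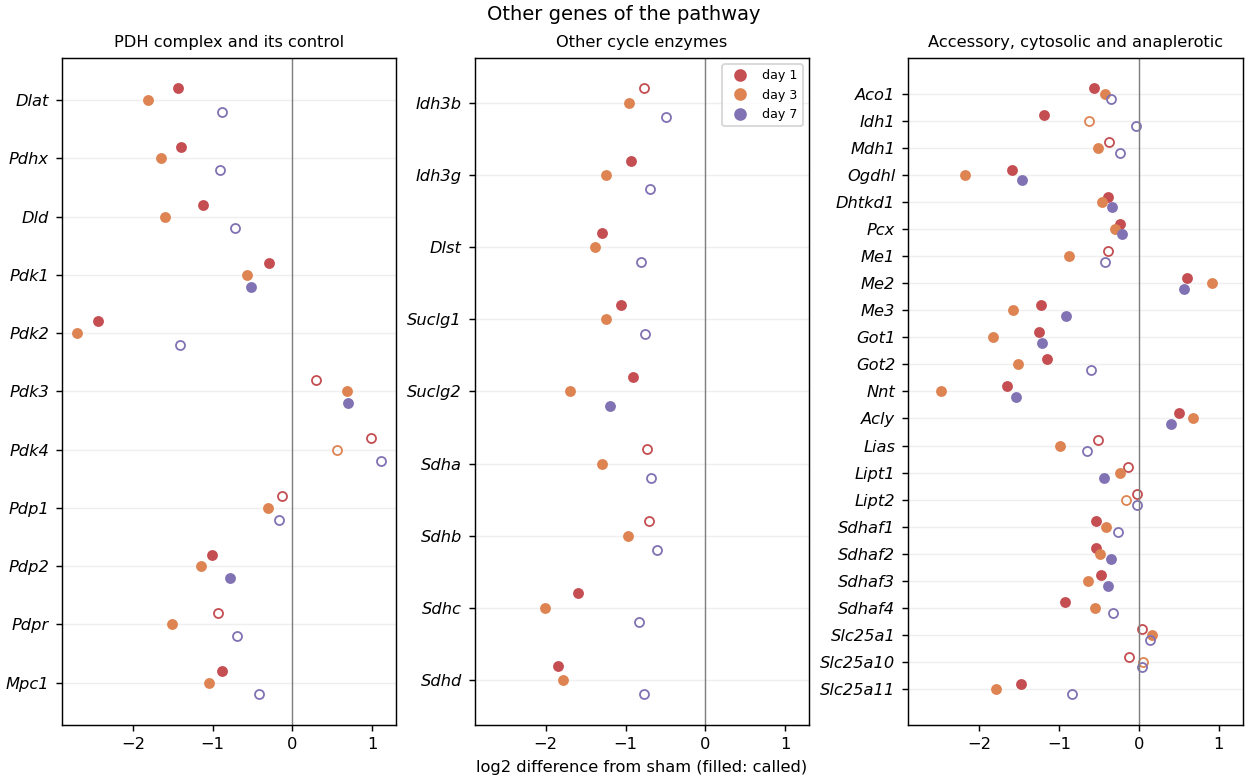
Log2 difference from sham of the 43 other tested genes of the pathway on days 1, 3 and 7, in 3 groups by role, with filled points for called differences. Most points lie left of 0, Pdk2 reaches −2.70, and Me2, Acly, Pdk3, Pdk4 and Slc25a1 lie right of 0 on each day.

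The tested genes nearest to the mean course of the 9 were taken by root mean square distance over 16 arrays, with each gene centred on its own mean over the arrays. The 9 genes, the other genes of the pathway lists and symbols of clones or predicted genes were left out of the ranking, and of the left-out pathway genes Dld, at 0.095, was nearer than the fifth gene named. The nearest were Acadm (0.065), Fech (0.072), Pccb (0.093), Ndrg2 (0.094) and Myoz2 (0.107), where the median over all tested genes was 0.833. Acadm encodes the medium-chain acyl-CoA dehydrogenase of fatty acid oxidation, Fech the enzyme of the last step of heme synthesis, Pccb a propionyl-CoA carboxylase subunit and Myoz2 a Z-disc protein of striated muscle. The distances of the 9 genes themselves were 0.065 for Idh3a to 0.206 for Idh2. Without arrays 13 and 31 the nearest were Ndufb7, Vdac1, Acadm, Fech and Mfn1, at 0.05 to 0.081, so 2 of 5 were shared. Arrays share scaling and cell makeup, and these distances are a description with no test.

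Promoter windows of RefSeq on GRCm38.p6, from 250 bases before to 50 after a transcript start, were matched by symbol for 8 of the 9 genes, all but Idh3a. They were searched on both strands for the estrogen-related receptor (ERR) motif TNAAGGTCA, the NRF1 core GCATGCGC, the GABP/ETS core CCGGAAG, the YY1 core AANATGGCG, the cyclic AMP response element (CRE) TGACGTCA and the GC box GGGCGG, where N is any base. A GC box was found in 7 of 8 genes, all but Pdha1, and in 38.2% of the 27025 genes with a window. A CRE was found in Mdh2 and Ogdh and in 2.03% of genes, and the NRF1 and YY1 cores in Ogdh alone of the 8 and in 3.05% and 2.76% of genes. The ERR motif and the GABP/ETS core were in none of the 8 and in 1.43% and 9.93% of genes. Ogdh has 6 windows, more than the others, which gives it more letters to match. These 4 windows show the range, with GC boxes alone (Cs, chr10:128337477-128337776, plus strand), a CRE with GC boxes (Mdh2, chr5:135778399-135778698, plus strand), the NRF1 and YY1 cores (Ogdh, chr11:6292308-6292607, plus strand) and no match (Pdha1, chrX:160138381-160138680, minus strand), with matches in capitals.
Cs: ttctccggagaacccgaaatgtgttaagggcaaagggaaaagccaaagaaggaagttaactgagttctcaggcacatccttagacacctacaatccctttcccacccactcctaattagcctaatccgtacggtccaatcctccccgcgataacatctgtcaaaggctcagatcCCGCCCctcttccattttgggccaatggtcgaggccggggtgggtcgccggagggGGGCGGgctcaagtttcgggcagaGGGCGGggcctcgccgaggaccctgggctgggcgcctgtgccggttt
Mdh2: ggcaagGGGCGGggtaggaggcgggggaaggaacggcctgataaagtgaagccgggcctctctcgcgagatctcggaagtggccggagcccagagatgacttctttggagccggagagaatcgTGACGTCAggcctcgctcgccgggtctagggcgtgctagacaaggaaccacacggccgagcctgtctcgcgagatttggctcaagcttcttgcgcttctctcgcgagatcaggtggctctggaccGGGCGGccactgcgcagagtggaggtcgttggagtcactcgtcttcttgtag
Ogdh: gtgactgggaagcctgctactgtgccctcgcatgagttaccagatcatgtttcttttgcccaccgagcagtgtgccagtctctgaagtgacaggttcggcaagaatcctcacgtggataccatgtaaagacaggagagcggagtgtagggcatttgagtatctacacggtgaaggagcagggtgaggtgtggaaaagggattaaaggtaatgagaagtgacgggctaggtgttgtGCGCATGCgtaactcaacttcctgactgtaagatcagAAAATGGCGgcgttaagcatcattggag
Pdha1: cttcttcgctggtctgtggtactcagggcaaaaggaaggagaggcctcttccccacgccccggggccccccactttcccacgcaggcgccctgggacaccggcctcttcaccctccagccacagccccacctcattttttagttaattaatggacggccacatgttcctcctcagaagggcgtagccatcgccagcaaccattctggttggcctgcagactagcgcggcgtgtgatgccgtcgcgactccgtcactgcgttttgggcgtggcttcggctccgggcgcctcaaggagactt
The match letters are a description of these windows and not of binding. Whether any of these motifs had a part in the values of the 9 genes was not tested.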

How the data were processed

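RNA of atrial tissue was measured on 16 single-colour arrays in 4 groups of 4. The authors deposited log2 values, 72688 rows without missing values, made with Affymetrix Expression Console per the submitters' processing notes; background correction, summarisation and scaling were not given in the sources used here, and differences therefore stay on the log2 scale and are not turned into folds. The rows are named as transcript clusters, which the array named in the labels does not have, so the design is uncertain. Rows annotated with 1 symbol (30604) were joined to genes, the row with the highest mean was taken, and 813 symbols were updated from RefSeq. Genes above the array's median on at least 4 arrays were tested (18419). The highest value was 19.93. limma 3.58.1 in R 4.3.3 (lmFit, eBayes with a variance trend) was fitted with 1 mean per group, with Benjamini-Hochberg adjustment over all tested genes of a comparison. The fit was tested on simulated data.

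The 9 genes, the pathway and marker lists, the motifs and the tests were chosen with earlier results of these data known. Named were all 9 genes, up to 4 called genes of largest change per pathway group, the tested Pdk and Pdp genes and the 5 genes nearest in course. Alternatives changed the scaling, the filter, the variance trend, array weights, the groups in the fit, the row per gene, the arrays kept and a quality covariate. Precision is limited by the number of arrays.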

Additional observations from a re-analysis of the deposited data

Results flagged for a closer look

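Of 148 groups of 4 values of the named and marker genes, 33 held a value whose gap to its nearest neighbour was large against the group's range by Dixon's criterion, where chance alone gives about 1 in 20. Day 3 array 31 gave most of them. It was low for all 9 genes, at 14.78 for Pdha1, 15.53 for Pdhb, 14.63 for Cs, 13.24 for Idh3a, 11.25 for Idh2, 12.68 for Ogdh, 12.33 for Sucla2, 11.23 for Fh1 and 13.25 for Mdh2. Among other pathway genes it was low for Dlat at 8.22, Dld at 14.45, Dlst at 11.46, Nnt at 7.78, Pdhx at 8.67, Pdk2 at 6.91, Pdp2 at 5.07, Sdhc at 8.49, Sdhd at 11.63, Slc25a11 at 11.89 and Suclg2 at 9.03. Muscle markers were low in the same array, with Tnni3 at 11.05, Ryr2 at 13.12, Myl3 at 14.14, Myl7 at 10.23 and Sln at 9.54, and the leukocyte markers S100a8 at 13.64 and Itgam at 12.70 were high. The leukocyte marker Adgre1 was not high there, at 8.55 against 10.44 to 11.08 in arrays 32 to 34.

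Day 7 array 73 was high for Pdha1 at 17.19, for Pdhb at 18.22 and for the brown adipocyte gene Ucp1 at 6.26, and low for Ogdhl at 7.14. Day 7 array 74 was low for Pdk1 at 7.70, and sham array 3 was high for Cs at 18.29.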

How the results depend on the processing

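Of 234 values (9 genes under 26 alternatives) per day, 202, 233 and 173 kept their direction and side of the threshold on days 1, 3 and 7, and 26, 1 and 0 lost the call; differences spanned −2.20 to 0.03, −2.66 to −0.80 and −1.58 to −0.48. The day 7 count of genes called lower (0 on all arrays) was 2 with arrays centred on their median and 9 with array weights, with only the 2 groups compared, without arrays 13 and 31, with control separation as covariate, and without arrays 13, 31 and 73, an alternative chosen after seeing the data. Leaving out 1 array at a time it ran from 0 to 9, and the day 1 count from 1 to 9. All tested genes called in either direction then ran from 3320 to 6531 on day 7 and from 6447 to 11510 on day 1. For day 7 minus day 3, 3 of the 9 genes were called higher with weights and 4 without arrays 13 and 31. The count was 8 with the covariate and 1 without arrays 13, 31 and 73. Over all tested genes 4.06% were called higher on all arrays and 5.43% without arrays 13 and 31. The share in the other settings is not given here. For the pathway list on day 7 (12 called lower on all arrays), the count was 33 with weights, 32 with 2 groups, 34 without arrays 13 and 31, 33 with the covariate, 33 without arrays 13, 31 and 73, and 9 to 29 leaving out 1 array. It called 4 higher on day 1 with the covariate and 2 on day 3 after quantile normalisation. Over all genes on day 7, where 4568 were called, the same 5 settings gave 8280, 7122, 7480, 7558 and 7510. The day 1 median of all genes was −0.149 after quantile normalisation and 0.064 as deposited.

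Reversed directions were few against sham: Pdha1 on day 1 with the covariate, 0.03, and Pdk4 on day 3 after quantile normalisation, −0.02. For day 7 minus day 1 the covariate gave −0.52 for Pdha1, −0.28 for Pdhb, −0.31 for Cs, −0.43 for Idh3a, −0.78 for Idh2, −0.28 for Ogdh, −0.39 for Sucla2, −0.40 for Fh1 and −0.26 for Mdh2; leaving out arrays 13 and 31 gave −0.01, −0.23 and −0.04 for Pdha1, Idh2 and Sucla2, leaving out array 73 as well −0.04, −0.20 and −0.14, and weights −0.12 for Idh2 and −0.05 for Sucla2. Leaving out 1 array, day 7 minus day 1 ran from −0.01 to 0.36 for Pdha1, −0.23 to 0.35 for Idh2 and −0.04 to 0.36 for Sucla2, and day 3 minus day 1 from −0.79 to 0.03 for Pdhb, −0.76 to 0.14 for Cs, −0.75 to 0.10 for Idh3a, −0.63 to 0.20 for Ogdh, −0.69 to 0.16 for Fh1 and −0.56 to 0.06 for Mdh2. The cause was not tested. No paired analysis was possible because the groups share no replicate numbers.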
